A study of Mus musculus with 6 samples.

Results

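The cytochrome P450 genes of the mouse were followed here across a Hi-C study of embryonic stem cells. The set was taken by symbol as every protein-coding autosomal gene named Cyp, a number, 1 letter and a number, which gave 92 of 20665 protein-coding autosomal genes. Of these, 91 could be placed in a 50 kb bin with a label in all 6 libraries, of 20375 genes so placed in all. The exception was Cyp2c40, whose bin had no label in Ino80KD replicate 2. The members lie on 14 chromosomes, and 57 of them form 8 clusters of 3 or more genes with gaps of at most 200 kb, 12 form 6 pairs and 23 stand alone. Because neighbours can share a bin, the 92 genes have only 83 midpoint bins, and the members of a cluster are not independent of each other.

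All cells were wild type E14 cells, a male mouse embryonic stem cell line grown with serum and leukemia inhibitory factor, and each group was transfected with esiRNA, a pool of short interfering RNAs cut by an enzyme from a long double-stranded RNA, and collected 48 h later. In the Brg1KD group the esiRNA targeted Smarca4, which encodes Brg1, the motor subunit of SWI/SNF-type chromatin remodellers. In the Ino80KD group it targeted Ino80, the motor subunit of another remodeller, and the Control group received esiRNA against EGFP, which these cells do not carry in their own genome. Each group had 2 libraries, 1 per batch, and the 2 knockdowns were compared with the same 2 control libraries. Hi-C measures contacts between DNA segments and no RNA, so neither the depletion of the targets nor the expression of any P450 gene was measured, and a knockdown leaves some of its target. All 7 pluripotent cell markers placed (among them Pou5f1, Sox2 and Nanog) lay in A in all 6 libraries, whereas 4 of 6 hepatocyte markers and 3 of 5 fibroblast markers did, which checks only where the genes lie and not whether they are used.

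P450 enzymes are heme proteins that insert oxygen into small molecules, with electrons supplied by Por in the endoplasmic reticulum or by Fdxr and Fdx1 in mitochondria. Families 1 to 3 oxidise drugs, toxins and arachidonic acid, mostly in liver, gut, lung and nose. Family 4 acts on fatty acids, and further families make and break down bile acids, steroid hormones, vitamin D and retinoic acid. The retinoic acid enzymes matter most in an embryo, where they clear a signal that drives embryonic stem cells to differentiate.

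Each library had been divided by the authors into 8 subcompartments, ordered from B.2.2 (class 1, the most inactive chromatin) through B.2.1, B.1.2, B.1.1, A.2.2, A.2.1 and A.1.2 up to A.1.1 (class 8, the most active). The clustered P450 genes lay mostly in B, and the single ones lay in A about as often as other genes. Of the clustered members 14.3% and 17.9% were in A in the Brg1KD libraries, 16.1% and 19.6% in the Ino80KD libraries, and 14.3% in each control library. Of the single members 69.6% were in A in each Brg1KD library, 60.9% and 65.2% in the Ino80KD libraries, and 69.6% in each control library. Members in pairs stood at 66.7% in every library, and all genes at 71.1% to 72.2%. The difference between clustered and single members in every library was thus larger than the spread between libraries, and no test was run on it because cluster members share their segments. When pairs were counted as clusters, 23.5% of clustered members were in A in the controls. The pair members in B were Cyp4x1, Cyp4a29, Cyp3a57 and Cyp3a16, and the other pair members were in A in every library. P450 genes left out by the choice of symbols lie between Cyp4a29 and Cyp4a14 and between Cyp3a16 and Cyp3a44. With those genes allowed to join members, 61 instead of 57 were clustered. The 66.7% for pairs thus depends on that choice, and shares in A with the 61 were not computed. The median number of genes within 500 kb on each side was 20 for clustered members, 12 for single members and 17 for all genes.

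**Figure D1:**
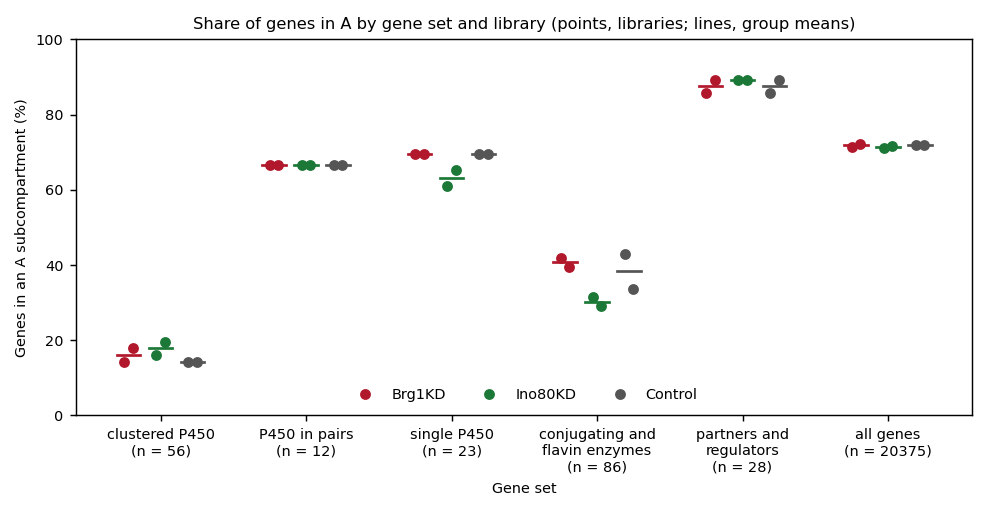
Percentage of genes whose midpoint bin lies in an A subcompartment (y axis), by gene set (x axis), with 1 point per library and a line at each group's mean. Clustered P450 genes sit between 14.3% and 19.6% in the 6 libraries, single P450 genes between 60.9% and 69.6%, and all genes between 71.1% and 72.2%.

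Across the 6 libraries, 30 of the 91 members were in A every time, 54 were in B every time and 7 changed side (Cyp2b10, Cyp2d22, Cyp2d11, Cyp8b1, Cyp39a1, Cyp4v3 and Cyp3a13). Exactly the same label in all 6 libraries was seen for 27 members, or 29.7%, against 44.8% of all genes. Within groups, replicates gave the same label for 60.4% of members in Brg1KD, 62.6% in Ino80KD and 69.2% in Control, where all genes gave 73.5%, 74.8% and 72.8%. Labels of P450 genes thus varied between replicates of 1 group, and a shift of 1 class has to be read against that.

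The genes of families 2 and 3 lay mostly in B. Of the 45 placed family 2 members (apart from Cyp2r1), 5 and 7 were in A in the Brg1KD libraries, 6 and 8 in the Ino80KD libraries and 5 in each control library. None of the 7 family 3 members was in A in any knockdown library, and 1 was in Control replicate 2 (Cyp3a13). Family 1 stood apart from both: Cyp1a1 and Cyp1a2, inducible enzymes that oxidise polycyclic aromatics and caffeine-like compounds, shared a bin in A.1.1 in all 6 libraries. Their relative Cyp1b1, which oxidises aromatic pollutants and oestradiol, was in A in all 6.

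The Cyp2c cluster on chromosome 19 filled 1 block of B chromatin with hardly anything else in it. Its 14 genes, which in mouse encode drug oxidases and arachidonic acid epoxygenases, run from Cyp2c55 to Cyp2c70 over 1180.3 kb. The block of B around them was chr19:39000001-40200000 (mm10), 1200 kb long, and its borders fell at the same bins in all 6 libraries. All 14 protein-coding genes placed in it are members. An unlabelled bin interrupted it in 4 libraries. On the Hells side the label stepped by 5 or 6 classes to A.1.2, and on the Pdlim1 side by 3 or 4 classes to A.2.1 or A.2.2. For comparison, the median step at a border of A and B was 3 classes in each library, and 17.7% to 22.7% of borders stepped by 5 or more.

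Inside the block the Cyp2c genes were not uniform. All 14 were B.2.1 in Brg1KD replicate 1, while in Brg1KD replicate 2 and Ino80KD replicate 1 the 7 genes from Cyp2c55 to Cyp2c67 were B.2.2 and the other 7 were B.2.1. In Ino80KD replicate 2 the B.2.2 stretch reached Cyp2c68, and Cyp2c40 had no label. In Control replicate 1 the first 7 were B.2.1 and the last 7 B.1.2, and in Control replicate 2 the first 3 were B.2.2 and the other 11 B.2.1. The mean class of the cluster was 2.0 and 1.5 in the Brg1KD libraries, 1.5 and 1.38 in the Ino80KD libraries, and 2.5 and 1.79 in the control libraries. Both Ino80KD values thus lay below both control values, and the Brg1KD values overlapped them. The control values, 2.5 and 1.79, lay further apart than the nearest Ino80KD and control values, 1.5 and 1.79. The mean of Ino80KD replicate 2 leaves out Cyp2c40. The genes share segments, and no background for this cluster mean was computed.

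The other large clusters formed similar blocks. The genes from Cyp4x1 to Cyp4b1 on chromosome 4 (a pair and a cluster), fatty acid hydroxylases such as Cyp4a10 and Cyp4a14, filled a block of B from 115100001 that ended at 115750000 in 5 libraries and at 115700000 in Brg1KD replicate 1. It held 10 protein-coding genes, of which 7 are members and the other 3 (Cyp4a12a, Cyp4a12b and Cyp4a30b) are P450 genes whose symbols end in a letter. The 8 Cyp2d genes on chromosome 15, relatives of the human drug oxidase CYP2D6, lay in a block of 450 kb, chr15:82350001-82800000, with 2 other genes. That block began 1 bin later in replicate 2 of Brg1KD and of Ino80KD, where Cyp2d22 and Cyp2d11 were A.1.1 and in no other library; both were B.1.1 in both controls, so neither knockdown was separated from control. The 6 Cyp3a genes (a pair and a cluster) from Cyp3a57 to Cyp3a59, the family of the main intestinal and hepatic drug oxidases, lay in a block of 850 to 950 kb on chromosome 5. The Cyp2j genes, epoxygenases of arachidonic acid, were the most B-like members: 6 of 7 were B.2.2 in all 6 libraries, in a block of 3500 to 3600 kb that held 13 genes. The median B block of a library was 1050 to 1150 kb.

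A single cluster lay in A. The 6 genes from Cyp4f39 to Cyp4f15 on chromosome 17, which hydroxylate leukotrienes and long fatty acids, were in A in all 6 libraries, as were the neighbouring pair Cyp4f14 and Cyp4f13. Inside the cluster Cyp4f17 and Cyp4f16 were A.1.1 in Ino80KD replicate 2 and Control replicate 2, and A.2.1 in the other 4 libraries.

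**Figure D2:**
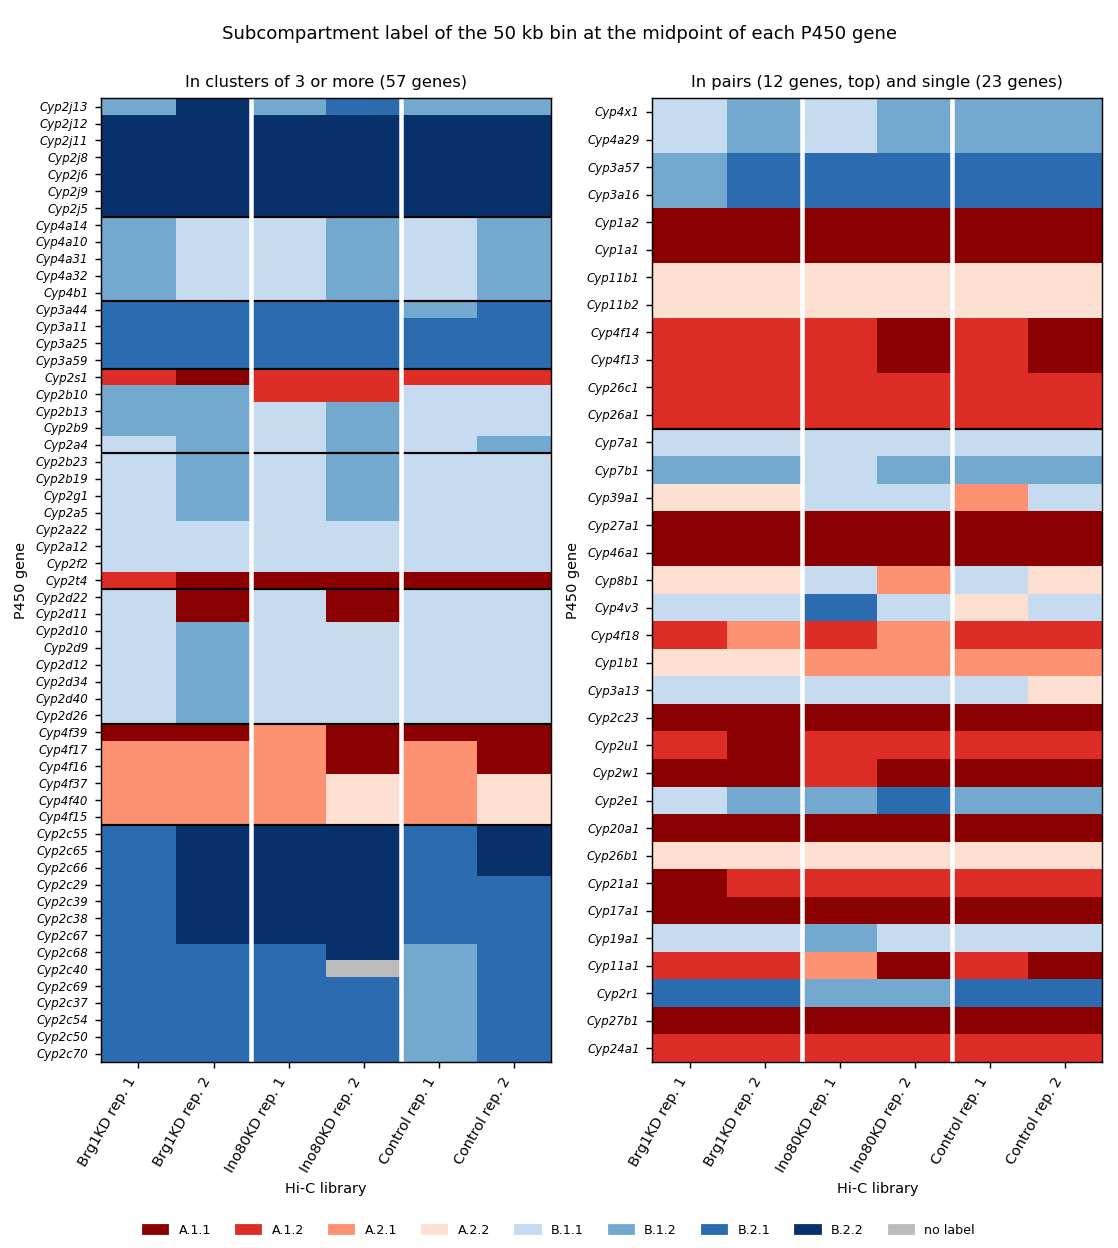
Subcompartment label (colour, A.1.1 dark red to B.2.2 dark blue) of the midpoint bin of each of the 92 P450 genes (rows) in each of the 6 libraries (columns), with clustered genes in genome order on the left and pairs and single genes, by role, on the right. Black lines part the clusters; 54 of 91 placed genes are blue in every library and 30 are red in every library.

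On chromosome 7 the Cyp2a, Cyp2b, Cyp2f and Cyp2g genes, which oxidise barbiturates, coumarin and nicotine-like compounds or act in lung and nose, shared a block of B with Vmn1r and Nlrp genes. The block was chr7:25900001-27150000, with 11 members among its 16 genes, in both Brg1KD and both control libraries. The block began at 25950001 in both Ino80KD libraries, with 10 members among 15 genes, because the bin of Cyp2b10 was labelled with the A segment beside it. These genes form 2 clusters by the 200 kb rule, Cyp2s1 to Cyp2a4 and Cyp2b23 to Cyp2t4. Cyp2s1 and Cyp2t4, at the outer ends of the group, were in A in all 6 libraries.

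**Figure D3:**
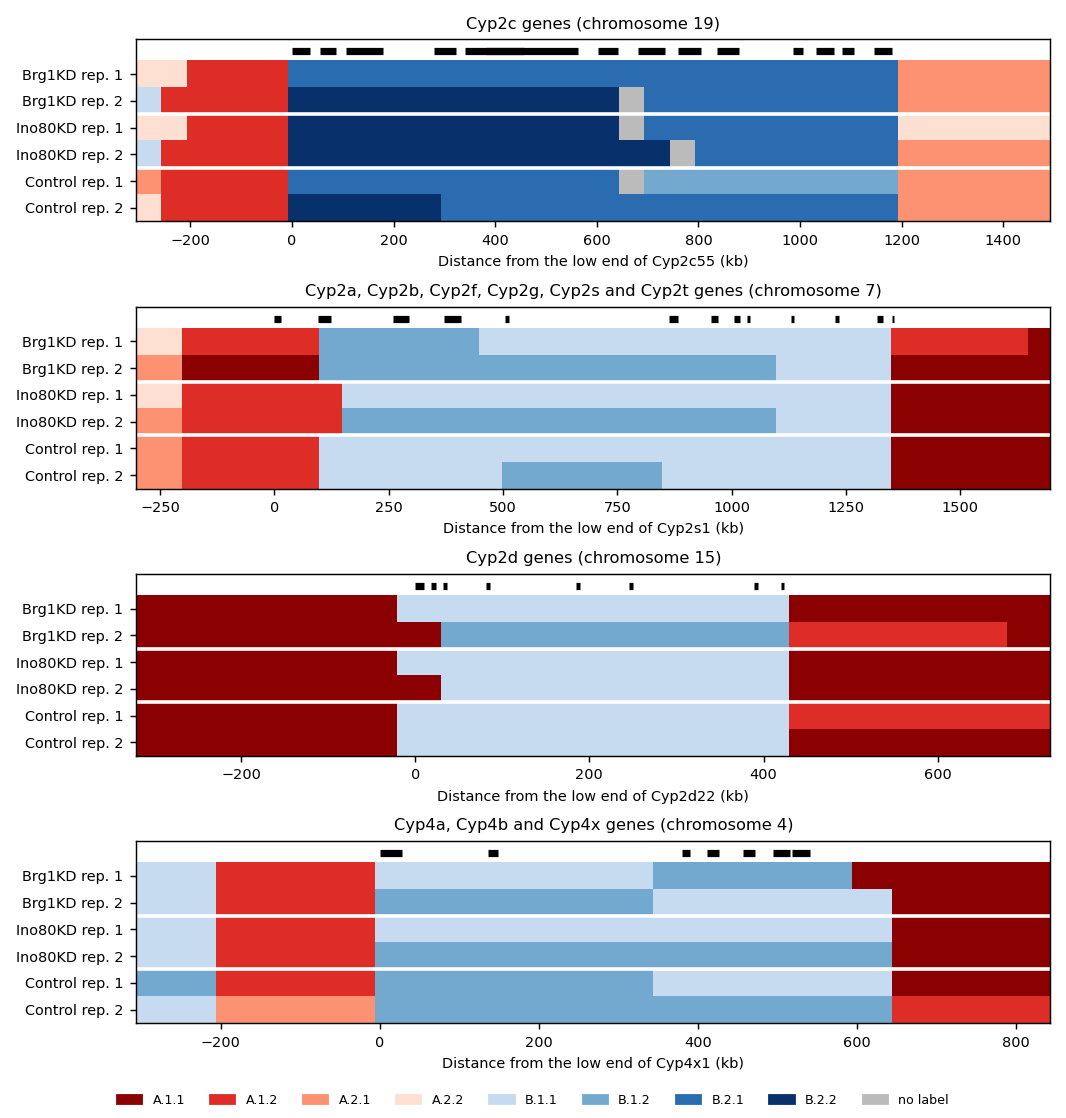
Subcompartment label (colour) of each 50 kb bin along 4 groups of P450 genes, by distance in kb from the low end of the first gene (x axis), with 1 strip per library (Brg1KD, Ino80KD, Control from top to bottom), black bars for the P450 genes and grey for bins with no label. The Cyp2c block has the same borders in all 6 strips, and on chromosome 7 the border lies 1 bin further right in both Ino80KD strips.

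Cyp2b10, the barbiturate-inducible enzyme of the liver and the classic target of the receptor Nr1i3, was the member with the largest difference. Its bin, chr7:25900001-25950000, was B.1.2 in both Brg1KD libraries (class 3), A.1.2 in both Ino80KD libraries (class 7) and B.1.1 in both control libraries (class 4). The groups did not overlap in any of the 3 comparisons. The difference from Control was -1 class in Brg1KD and 3 classes in Ino80KD (limma, SE 0.0022 each, adjusted p = 8e-08 and 1.2e-07). With a common variance for all bins the call in Brg1KD was lost (adjusted p = 0.236) and that in Ino80KD was kept (adjusted p = 1.93e-07). Averaged over the bins that the gene touches, each counted equally, the differences were -0.25 class in Brg1KD and 1.5 classes in Ino80KD. Most of the gene lies in its midpoint bin, so this mean is not weighted by the length of gene in each bin. The start of transcription of Cyp2b10 lies in the bin before, which was A.1.2 and A.1.1 in the Brg1KD libraries, A.1.2 in both Ino80KD libraries and A.1.2 in both control libraries. In that bin Brg1KD differed from Control by 0.5 class, the opposite direction, and Ino80KD by 0. The result therefore concerns the bin that holds most of the gene body and borders the A segment.

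The SE above is small because replicates had the same integer label. In 18941 of 47717 bins the fit had no residual spread, so limma's p-values are not calibrated for these data, and the counts of genes whose groups do not overlap are given first below. Nothing in the labels says that replicates were separate cultures, so p-values measure only the spread between these samples.

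Next to Cyp2b10 lie Cyp2b13 and Cyp2b9, whose bins were B.1.2 in both Brg1KD libraries, B.1.1 and B.1.2 in the Ino80KD libraries, and B.1.1 in both control libraries. Brg1KD lay 1 class below both controls for both genes (limma adjusted p = 0.733), and the Ino80KD values overlapped the controls. Their promoters are shown, with that of Cyp2b10, because they are near copies. The sequences run from 250 bases before to 50 bases after the start (RefSeq, GRCm38.p6, plus strand, chr7:26061245-26061544, chr7:26173159-26173458 and chr7:25897408-25897707). Capitals in the first pair mark the 2 bases at which they differ (99.3% identity), and capitals in the third, which lies in the A bin before that of the gene's midpoint, mark its 63 bases that do not match Cyp2b9. Bases of Cyp2b9 without a counterpart in Cyp2b10 are not marked. The closest member to the Cyp2b10 promoter was Cyp2b13, at 84 edits (72.0% identity).
Cyp2b13: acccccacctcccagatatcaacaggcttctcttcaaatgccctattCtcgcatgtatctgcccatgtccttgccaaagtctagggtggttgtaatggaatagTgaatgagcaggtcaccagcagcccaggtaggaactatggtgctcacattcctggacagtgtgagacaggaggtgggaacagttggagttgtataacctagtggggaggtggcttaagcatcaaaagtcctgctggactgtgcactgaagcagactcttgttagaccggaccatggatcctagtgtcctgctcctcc
Cyp2b9: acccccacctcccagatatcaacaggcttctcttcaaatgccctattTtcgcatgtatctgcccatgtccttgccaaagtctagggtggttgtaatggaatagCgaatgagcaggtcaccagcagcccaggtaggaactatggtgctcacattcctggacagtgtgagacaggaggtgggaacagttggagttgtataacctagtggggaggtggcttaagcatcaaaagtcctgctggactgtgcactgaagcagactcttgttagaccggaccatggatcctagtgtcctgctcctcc
Cyp2b10: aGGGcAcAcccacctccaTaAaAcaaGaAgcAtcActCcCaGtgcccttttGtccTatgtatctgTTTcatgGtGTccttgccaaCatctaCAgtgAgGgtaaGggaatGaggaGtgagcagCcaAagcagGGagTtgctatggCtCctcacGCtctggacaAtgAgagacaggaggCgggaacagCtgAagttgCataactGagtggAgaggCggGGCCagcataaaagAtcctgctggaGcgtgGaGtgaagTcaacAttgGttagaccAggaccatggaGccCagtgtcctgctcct

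Over all members, 4 of 91 did not overlap between Brg1KD and Control, beside 7.63% of all genes. None of these lay towards A (background 3.29%) and all 4 lay towards B (background 4.34%). They were Cyp2b10, Cyp2b13, Cyp2b9 and Cyp1b1. The Cyp2b genes among them are neighbours with the same labels in the Brg1KD and control libraries, and are not independent of each other. The count was 24 without Brg1KD replicate 1, 11 without Brg1KD replicate 2 and 14 without Control replicate 1 and without Control replicate 2. A lone library has fewer values to pass, and the share of all genes was then 16.7%, 16.2%, 15.7% and 18%. With each library centred, which breaks ties between equal labels, 50 members (54.9%) did not overlap, beside 75.6% of all genes. limma called 2 members (background 3.48%), Cyp2b10 and Cyp1b1, none of them towards A (background 1.49%) and both towards B (background 1.99%). Between Ino80KD and Control, 6 members did not overlap, beside 4.82% of all genes. Cyp2b10 and Cyp2r1 lay towards A (background 1.97%), and Cyp2c29, Cyp2c39, Cyp2c38 and Cyp2c67 lay towards B (background 2.86%). limma called Cyp2b10 and Cyp2r1 (background 2.47%), both towards A (background 0.918%) and no member towards B (background 1.55%). The count of 6 became 19 without Ino80KD replicate 1, 14 without Ino80KD replicate 2, 18 without Control replicate 2 and 7 without Control replicate 1, beside 12.5%, 13%, 15.6% and 11.8% of all genes. With each library centred it was 51 (56%), beside 73.1% of all genes.

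The mean class of the 91 members was 4.26 and 4.14 in the Brg1KD libraries, 4.21 and 4.23 in the Ino80KD libraries, and 4.40 and 4.25 in the control libraries. Brg1KD differed from Control by -0.121 class (-0.132 and -0.11 within the batches, exact two-sided permutation p = 0.667), and Ino80KD by -0.104 class (-0.187 and -0.022 within the batches, exact p = 0.333). The smallest p that 2 libraries against 2 can give is 0.333, so neither can pass a threshold. All genes differed by -0.005 and -0.025 class. With each library centred on its mean over all bins, the members differed by -0.036 and -0.027 class. Those means were 3.91 and 3.889 in Brg1KD, 3.922 and 3.892 in Ino80KD, and 3.991 and 3.978 in Control. Centring moves every gene of a library alike, so it does not change the gap between members and all genes. The share of members in A differed by 1.1 percentage points in Brg1KD and by 0.549 in Ino80KD (exact permutation p = 1.0 each), and the value for Ino80KD turned to -1.1 without Ino80KD replicate 2. Both Ino80KD means lay below both control means, the arrangement that gives the smallest p here, whereas 1 Brg1KD mean lay between the control means. With each library centred, the Ino80KD means overlapped the control means.

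**Figure D4:**
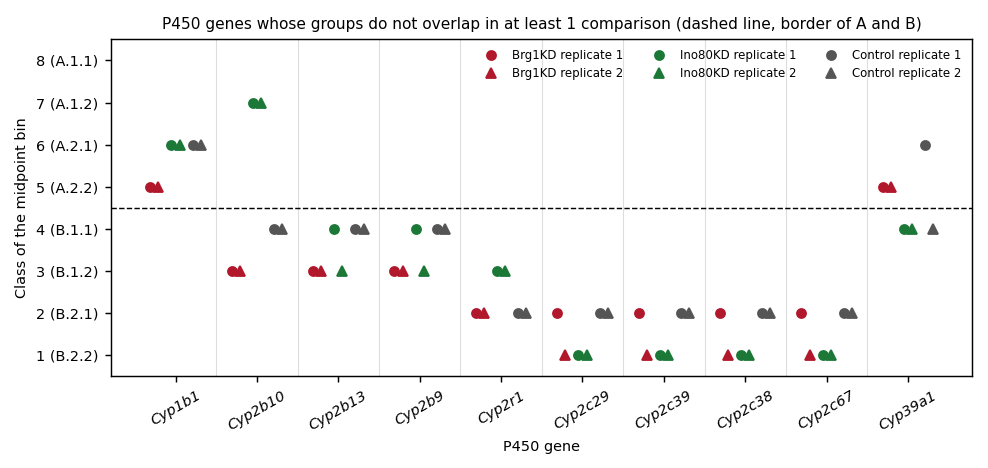
Class of the midpoint bin (y axis, 1 for B.2.2 to 8 for A.1.1) of the 10 P450 genes (x axis) whose groups do not overlap in at least 1 of the 3 comparisons, with 1 point per library (circle, replicate 1; triangle, replicate 2). Cyp2b10 spans classes 3 to 7 and Cyp39a1 spans classes 4 to 6, and both cross the border of A and B (dashed line). The other genes each keep to 2 neighbouring classes on 1 side of it.

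Cyp1b1 (chr17:79706940-79715061) lay in A.2.2 in both Brg1KD libraries, against A.2.1 in both Ino80KD and both control libraries. Brg1KD differed from Control by -1 class (limma, SE 0.0022, adjusted p = 8e-08), and with a common variance for all bins the adjusted p was 0.236. Its promoter, shown as that of the called member in A in all 6 libraries, lies on the minus strand at chr17:79715012-79715311 (GRCm38.p6, RefSeq), with its 16 CpG dinucleotides in capitals.
Cyp1b1: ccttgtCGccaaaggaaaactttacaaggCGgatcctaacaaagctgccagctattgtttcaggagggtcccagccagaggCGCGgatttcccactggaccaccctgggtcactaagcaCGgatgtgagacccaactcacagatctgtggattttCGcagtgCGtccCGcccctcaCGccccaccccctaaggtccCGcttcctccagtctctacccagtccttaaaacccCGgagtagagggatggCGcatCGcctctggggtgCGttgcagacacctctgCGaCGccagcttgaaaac
The median was 14 over the 16457 genes with a promoter entry and 7 over single P450 genes, and the promoter of Cyp2r1, another called single gene, has 22.

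Cyp2r1, the liver enzyme that adds the first hydroxyl group to vitamin D, lay in B.1.2 in both Ino80KD libraries, against B.2.1 in both Brg1KD and both control libraries. Ino80KD differed from Control by 1 class (limma, SE 0.0022, adjusted p = 1.2e-07; 0.362 with a common variance). Its block of B, chr7:114300001-116100000, had the same borders in all 6 libraries. The other vitamin D enzymes had 1 label throughout: Cyp27b1, which makes the active hormone, was A.1.1 and Cyp24a1, which inactivates it, was A.1.2 in all 6.

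The 4 Cyp2c genes that lay towards B in Ino80KD were B.2.2 in both its libraries, B.2.1 and B.2.2 in the Brg1KD libraries and B.2.1 in both control libraries. Their difference from Control was -1 class each and limma did not call them (SE 0.386, adjusted p = 0.97). The 4 lie side by side with the same label in every library and count as 1 observation. Without the 38 members whose bin touches a segment border in any library, 54 were left. Of these, 3 remained beyond Control in Brg1KD and 2 in Ino80KD. The share of all genes under this filter was not computed, so these counts have no background to be read against.

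Between the knockdowns themselves, 4 members did not overlap, beside 7.18% of all genes. In Brg1KD relative to Ino80KD, Cyp39a1 lay towards A (background 3.95%), and Cyp1b1, Cyp2b10 and Cyp2r1 lay towards B (background 3.23%). limma called 3 members (background 2.73%), none towards A (background 1.42%) and 3 towards B (background 1.31%). Brg1KD minus Ino80KD was -4 classes for Cyp2b10 and -1 class each for Cyp1b1 and Cyp2r1 (limma, adjusted p = 9.78e-08). With a common variance the call of Cyp2b10 remained, and those of Cyp1b1 and Cyp2r1 had adjusted p = 0.269. Cyp39a1, an oxysterol hydroxylase of bile acid synthesis, was A.2.2 in both Brg1KD libraries, B.1.1 in both Ino80KD libraries, and A.2.1 and B.1.1 in the control libraries. Brg1KD lay 1 class above Ino80KD there (limma adjusted p = 0.866), and the controls overlapped both.

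The remaining cholesterol and bile acid genes showed no separation. Cyp7a1, the rate-limiting enzyme of bile acid synthesis, was B.1.1 in all 6 libraries. Cyp7b1, which acts on oxysterols, was B.1.2 in 5 libraries and B.1.1 in Ino80KD replicate 1. Cyp8b1, which sets the share of cholic acid, was A.2.2 in both Brg1KD libraries, B.1.1 and A.2.1 in the Ino80KD libraries, and B.1.1 and A.2.2 in the control libraries, so the Ino80KD replicates differed more from each other than from Control. Cyp27a1, a mitochondrial sterol hydroxylase, and Cyp46a1, the cholesterol hydroxylase of brain, were A.1.1 in all 6.

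Of the 6 steroid hormone genes, 5 were in A in every library. Cyp17a1, which directs precursors to androgens and glucocorticoids, was A.1.1 in all 6, and Cyp11b1 and Cyp11b2, the last enzymes of glucocorticoid and mineralocorticoid synthesis, were A.2.2 in all 6. Cyp21a1, a hydroxylase of the adrenal cortex, was A.1.1 in Brg1KD replicate 1 and A.1.2 in the other 5. Cyp11a1, which cuts the side chain of cholesterol as the first step to all steroids, was A.1.2 in both Brg1KD libraries, A.2.1 and A.1.1 in the Ino80KD libraries, and A.1.2 and A.1.1 in the control libraries. Cyp19a1, the aromatase that makes oestrogens, was the exception in B, as B.1.1 in 5 libraries and B.1.2 in Ino80KD replicate 1.

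All 3 retinoic acid hydroxylases kept 1 label at their midpoint bin in all 6 libraries. Cyp26a1 and Cyp26c1 share a bin that was A.1.2 in all 6 libraries, and Cyp26b1 was A.2.2 in all 6. The far end of Cyp26a1 lies in the next bin, which was A.2.2 in Ino80KD replicate 2 and A.2.1 in the other libraries. Cyp20a1, an orphan enzyme with no settled substrate, was A.1.1 in all 6. Among other single genes, the ethanol oxidase Cyp2e1 was B.1.1 and B.1.2 in the Brg1KD libraries, B.1.2 and B.2.1 in the Ino80KD libraries and B.1.2 in both controls, in a block of 650 kb that it shared with olfactory receptor genes. Cyp2u1, a fatty acid hydroxylase, was A.1.1 in Brg1KD replicate 2 and A.1.2 in the other 5. Cyp4v3, whose human counterpart acts on fatty acids in the retina, ranged from B.2.1 in Ino80KD replicate 1 to A.2.2 in Control replicate 1, and was B.1.1 in the other 4.

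For chromatin loops, 1 list was deposited for each group, so values below have no replicate check. Of the 92 members, 7 (7.61%) had a 10 kb loop anchor at either gene end in Brg1KD, 8 (8.70%) in Ino80KD and 13 (14.1%) in Control, beside 11.6%, 11.1% and 11.6% of all genes. The lists held 6013, 5475 and 5903 loops. Both knockdown shares lay below, and the Control share above, the level of all genes, by differences of a few genes. The Control share was not above it in wider windows. With anchors widened by 10 kb on each side, 19 (20.7%), 23 (25%) and 25 (27.2%) members had one, beside 27.4%, 26.3% and 27.3% of all genes. With an anchor anywhere over the gene body, 14 (15.2%), 16 (17.4%) and 18 (19.6%) did, beside 22.5%, 21.3% and 22.3%. Of 9 loops at P450 gene ends in Brg1KD 5 were identical in Control, and 6 when anchors could differ by 10 kb; of 8 in Ino80KD, 4 and 5. For all genes, 48.0% of Brg1KD and 52.5% of Ino80KD loops were identical in Control, and 78.1% and 82.7% lay within 10 kb.

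**Figure D5:**
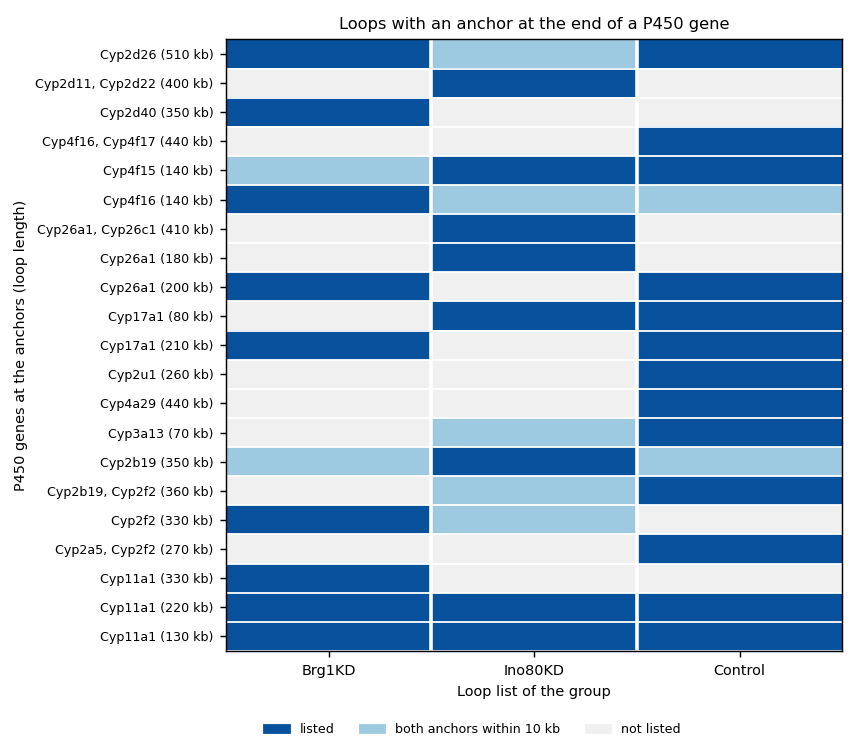
Loops with an anchor at the end of at least 1 P450 gene (rows, with the loop's length in kb) and whether each group's list (columns) holds the same 2 anchors (dark), 2 anchors within 10 kb (light) or neither (grey). The 2 loops that all 3 lists hold at the same anchors start at Cyp11a1, and 4 rows are marked in the Control column alone.

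Among loops at gene ends, those of Cyp11a1 alone had identical anchors in all 3 lists. Its start of transcription lies in the anchor chr9:57990001-58000000, which met 57770001-57780000 and 57860001-57870000 in each list, 220 and 130 kb away. Brg1KD listed another loop from that anchor, 330 kb to 57660001-57670000, which the other lists did not hold. The promoter (plus strand, chr9:57997774-57998073, GRCm38.p6, RefSeq) lies within the anchor, and its 7 CpG dinucleotides are in capitals.
Cyp11a1: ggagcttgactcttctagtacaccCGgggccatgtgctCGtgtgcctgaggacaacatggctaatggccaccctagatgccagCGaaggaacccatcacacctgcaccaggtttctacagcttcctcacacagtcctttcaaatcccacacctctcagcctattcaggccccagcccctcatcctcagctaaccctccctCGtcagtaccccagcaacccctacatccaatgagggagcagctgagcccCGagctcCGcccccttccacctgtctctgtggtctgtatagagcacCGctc
Cyp17a1 was joined to As3mt, an arsenic methyltransferase, in Ino80KD and Control over 80 kb, and to Cnnm2 in Brg1KD and Control over 210 kb.

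Cyp26a1, the main retinoic acid hydroxylase of the early embryo, had different loops in different lists. Its far end met a site 200 kb away in Myof in Brg1KD and Control, while in Ino80KD that end met a site 180 kb away and its start met Ffar4 over 410 kb. Its promoter (plus strand, chr19:37697558-37697857, GRCm38.p6, RefSeq) has the most CpG dinucleotides of those printed here, 26, again in capitals.
Cyp26a1: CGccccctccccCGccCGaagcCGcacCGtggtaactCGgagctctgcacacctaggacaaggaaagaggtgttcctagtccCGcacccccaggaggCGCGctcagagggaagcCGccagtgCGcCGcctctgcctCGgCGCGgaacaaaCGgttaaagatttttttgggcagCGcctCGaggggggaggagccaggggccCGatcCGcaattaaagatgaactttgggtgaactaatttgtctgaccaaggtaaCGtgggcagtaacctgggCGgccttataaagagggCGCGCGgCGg
At the other extreme, the promoter of Cyp2f2, a naphthalene oxidase of airway cells in a B.1.1 bin in all 6 libraries, has none (plus strand, chr7:27119705-27120004).
Cyp2f2: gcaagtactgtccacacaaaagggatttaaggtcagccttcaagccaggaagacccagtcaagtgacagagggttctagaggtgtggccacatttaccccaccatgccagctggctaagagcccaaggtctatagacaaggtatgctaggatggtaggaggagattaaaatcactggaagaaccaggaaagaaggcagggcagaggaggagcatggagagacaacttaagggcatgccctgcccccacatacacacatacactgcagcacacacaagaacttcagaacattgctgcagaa
Each list held a loop between the surroundings of Cyp2b19 and Cyp2f2. The length was 330 kb in Brg1KD (to the start of Cyp2f2), 350 kb in Ino80KD and 360 kb in Control (to its end). The Ino80KD loop lay within 10 kb of each of the others, but those of Brg1KD and Control did not match within 10 kb. In Control alone the start of Cyp2f2 also met Cyp2a5, a coumarin oxidase, over 270 kb.

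Several loops followed the blocks of the clusters; these were picked out after their values were seen. In all 3 lists 1 loop spanned the whole Cyp2c cluster, from chr19:38980001-38990000 to 40230001-40240000 in Brg1KD and in Ino80KD and to 40220001-40230000 in Control. All 14 genes lay inside it and none of the lists had an anchor within the cluster. A loop of 400 kb at the Cyp2j cluster, from chr4:96270001-96280000 to 96670001-96680000, had identical anchors in all 3 lists and held 5 members. A loop of 510 kb from Septin3 to Cyp2d26 held all 8 Cyp2d genes in Brg1KD and Control, and one of 490 kb in Ino80KD, with both anchors within 10 kb of these, held 7. At the far end of the Cyp4 block on chromosome 4, 3 loops in Brg1KD, 1 in Ino80KD and 4 in Control met at 115690001-115720000, all reaching back into the block. The loop to Cyp4x1 was in all 3 lists, at 580, 590 and 590 kb, and the one to the end of Cyp4a29 in Control alone. No list had a loop inside the span from Cyp3a57 to Cyp3a59 widened by 100 kb, nor an anchor in the pair or the cluster there. Loops at Cyp2u1 (260 kb) and at Cyp4f17 together with Cyp4f16 (440 kb, to Zfp472) were also in Control alone, and Cyp3a13 had a loop to Gjc3 over 70 kb in Control, within 10 kb in Ino80KD and not in Brg1KD. Cyp2d40 had a loop in Brg1KD alone, and Cyp2d11 with Cyp2d22 in Ino80KD alone. Cyp4f15 was joined to the body of Cyp4f16 over 140 kb in all 3 lists when anchors could differ by 10 kb.

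Promoter sequences were held for 72 of the 92 members. Clustered members had a median of 2 CpG dinucleotides in 300 bases, members in pairs 3 and single members 7, against 14 for all genes. At least 10 were found in 4.2% of clustered, 40.0% of single and 58.6% of all promoters. The TATA-box letters TATAAA, read on both strands, were in 40.3% of member promoters and in 50.0% of those in B in all 6 libraries, against 13.5% of all. The letters GCGTG, the core of the element bound by Ahr with Arnt, were in 20.8% of member promoters and 39.3% of all, a motif that itself holds a CpG. The nuclear receptor half-site letters AGGTCA were in 27.8% of member promoters and 14.4% of all. The closest other member had a median promoter identity of 70.5% for clustered and 49.0% for single members, and Cyp2a4 with Cyp2a5 (7 differences) and Cyp3a25 with Cyp3a59 (13) were the closest after Cyp2b9 with Cyp2b13. Closest pairs from different families gave values like the single median (Cyp1b1 with Cyp3a57, 48.3%). The lowest clustered value was also 48.3%. The level for unrelated promoters was not computed, so such values are not read as similarity. These are descriptions of letters, and related genes share them.

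The partners and regulators of P450 enzymes lay mostly in A. Of 28 of them (Por, Fdx1, Fdxr, Ahr, Nr1i2, Nr1i3, Hnf4a and others), 85.7% and 89.3% were in A in the Brg1KD libraries, 89.3% in both Ino80KD libraries, and 85.7% and 89.3% in the control libraries. Nr5a2, a regulator of bile acid and steroid genes, was A.1.1 in both Ino80KD libraries against A.1.2 in both control libraries (limma adjusted p = 0.97). It was the 1 partner of 28 beyond both controls in Ino80KD, and Cyb5a was the 1 beyond both in Brg1KD, by 1 class towards A (limma adjusted p = 0.733). These are 3.57% of the list each, beside 1.97% (Ino80KD) and 3.29% (Brg1KD) of all genes towards A. The 86 conjugating and flavin enzymes were taken by symbol as Ugt, Sult, Gst, Fmo and Ces genes, the last being carboxylesterases. Of these, 41.9% and 39.5% were in A in the Brg1KD libraries and 31.4% and 29.1% in the Ino80KD libraries. In the control libraries the shares were 43.0% and 33.7%. In Brg1KD 1 of these lay towards A (1.16%, beside 3.29% of all genes) and 10 towards B (11.6%, beside 4.34%) beyond both controls. In Ino80KD none lay towards A (beside 1.97% of all genes) and 9 towards B (10.5%, beside 2.86%). Among both the 10 and the 9 were 7 Sult and Ugt2 genes on chromosome 5 that were B.2.2 in all 4 knockdown libraries and B.2.1 in both controls, and share segments. Ces1a, a liver carboxylesterase, was B.1.2 in both Brg1KD libraries and B.1.1 in the Ino80KD and control libraries. Ugt2b34 was B.1.1 and B.2.1 in the libraries of each knockdown, and B.1.1 and A.2.2 in the control libraries. It differed from Control by -1.5 classes in both knockdowns, whose values overlapped the controls (limma adjusted p = 0.808 and 0.97). Ces4a, a carboxylesterase, had the largest difference, with B.1.1 and B.1.2 in the Brg1KD libraries, B.1.2 and B.1.1 in the Ino80KD libraries and A.1.1 in both control libraries (-4.5 classes in both, limma adjusted p = 0.0508 and 0.0759). The P450 genes outside the naming rule that act on sterols and prostanoids, Cyp51, Ptgis and Tbxas1, were in A in all 6 libraries.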

How the data were processed

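Hi-C was made from 6 libraries of E14 cells. The authors deposited 1 subcompartment file per library, with a label and a score for each segment, the score being the label's class in 8 equal steps, and 1 loop list per group with no score per loop. Per the submitters' processing notes the build was mm10; BWA, bedtools, HOMER, SAMtools and Juicer 2.0 are named there without roles, and the callers of subcompartments and loops are not given in the sources used here. Depth is unknown, since the files hold no read numbers.

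Each gene took the label of the 50 kb bin at its midpoint, as a class from 1 to 8. Bins were tested with limma 3.58.1 in R 4.3.3 over all 47717 bins labelled in all 6 libraries (Benjamini-Hochberg, 0.05), a fit tested on simulated data, and library means by exact permutation. Python 3.11.15, pandas 2.3.3 and numpy 2.4.6 were used. The replicate number is the batch in the labels, and deviations of libraries of the same batch correlated by 0.0984, 0.102 and 0.0885.

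Named genes were every cluster, every member beyond both controls, called or at a loop anchor, fixed single genes by function, and up to 3 genes a list by largest difference. The members and lists were chosen with earlier results of these data known. Alternatives were other bins, variances, scalings, cluster gaps, loop windows, a replicate block and each library left out; those using the start of transcription, the segment borders, other P450 symbols and the direct comparison of the knockdowns were chosen after seeing the data. Promoters came from RefSeq (GRCm38.p6), and protein sequences were not used here.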

Additional observations from a re-analysis of the deposited data

Results flagged for a closer look

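Cyp2b10 stood out because the knockdowns lay on opposite sides of Control. Its bin was class 3 in both Brg1KD libraries, class 7 in both Ino80KD libraries and class 4 in both control libraries, a difference of -4 classes between Brg1KD and Ino80KD (limma adjusted p = 9.78e-08). Averaged over the bins that the gene touches, each counted equally whatever length of gene it holds, the difference was -1.75 classes. In the bin of its start of transcription the difference was 0.5 class, in the other direction. The bin touches the border of a segment, and the part of that border in the result was not tested.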

How the results depend on the processing

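Of 243 alternative values, 182 were classed as the same, 14 newly passed the threshold, 5 no longer did, 38 moved and 4 turned round. For values with a p, the same meant an unchanged direction and side of the threshold. For counts it meant a change of at most 1.5-fold, and for other values a change within the replicate spread. The permutation tests could not pass the threshold in any setting, so their class rests on direction alone. Centring each library broke ties. Then 50 members (Brg1KD) and 51 (Ino80KD) did not overlap with Control, against 4 and 6, beside 75.6% and 73.1% of all genes. Without members at a segment border 2 remained for Ino80KD, and the share of all genes under that filter was not computed. Leaving out 1 library gave 11 to 24 such members for Brg1KD and 7 to 19 for Ino80KD, beside 15.7% to 18% and 11.8% to 15.6% of all genes. Members called by limma ranged from 4 to 14 (Brg1KD; 2 with all libraries), 3 to 9 (Ino80KD; 2) and 3 to 11 (Brg1KD against Ino80KD; 3), with the highest counts without Brg1KD replicate 1, without Control replicate 2, and without either Brg1KD library; of all genes these fits called 5.94% to 9.3%, 3.89% to 8.32% and 5.33% to 8.26%. A common variance left 1 call in Brg1KD against Ino80KD. In the comparisons with Control it called Cyp2d11 and Cyp2d22 in place of Cyp1b1 and Cyp2b10 (Brg1KD), and beside Cyp2b10 in place of Cyp2r1 (Ino80KD). Of all genes it called 2.73% (Brg1KD against Control), 0.741% (Ino80KD against Control) and 1.11% (Brg1KD against Ino80KD). The replicate block gave 2, 2 and 3 calls of the same genes, beside 3.8%, 2.59% and 2.96% of all genes. It gave mean class differences of -0.121 and -0.104, and changed no other call. The share in A in Ino80KD turned to -0.704 percentage points at the bin of the start of transcription and to -1.1 without Ino80KD replicate 2 (-1.1 to 2.2 over libraries left out). Cyp2b10 at its start of transcription turned to 0.5 class in Brg1KD against Control and against Ino80KD. Members with loop anchors were 19, 23 and 25 with anchors widened by 10 kb (27.4%, 26.3% and 27.3% of all genes), and 14, 16 and 18 anywhere over the gene body (22.5%, 21.3% and 22.3%). Clustered members in A in the controls were 23.5% with pairs counted as clusters. With 2 libraries a group and 8 classes, small shifts could not be separated from replicate spread, and loop lists have no replicates.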
